A study of Mus musculus with 7 samples.

Results

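Transcripts of 9 genes of the AP-1 and EGR families were followed in RNA-seq libraries of CD4+CD25+ mouse liver cells, isolated by fluorescence sorting with the pair of surface markers that regulatory T cells (Treg) carry. The genes are Fos, Fosb and Fosl2 of the FOS family, Jun, Junb and Jund of the JUN family, and Egr1, Egr2 and Egr3 of the EGR family. They were taken as a list of names, by a rule that holds no measured value, from a table of 53465 gene IDs, although earlier results of these data were known when the list was made. All 9 were found there, and all 9 were among the 14784 genes that passed the filter on low counts.

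The libraries fall into 3 groups. CD73-MCD (3 libraries) comes from CD73 knockout mice fed a diet deficient in methionine and choline for 4 weeks, MCD (2 libraries) from wild type C57BL/6 mice on the same deficient diet, and NCD (2 libraries) from wild type C57BL/6 mice on a normal control diet. The deficient diet is a common way to induce fatty liver with inflammation, and CD73, encoded by Nt5e, is the ectoenzyme that makes adenosine from extracellular AMP. No knockout library on the normal diet was analysed here, so the knockout is set only against wild type cells on the deficient diet or against wild type cells on both another diet and another genotype. The labels used here do not give age, the deleted part of Nt5e, the background strain of the knockout or any pooling of animals. Nor do they tell if each library of a group is from its own animal. The p-values therefore cover the spread among the sequenced libraries and nothing more, and that spread could be technical.

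AP-1 is a dimer of a JUN protein with a FOS protein, another JUN protein or a related basic leucine zipper protein. FOS proteins do not pair stably with each other and need a partner such as JUN. EGR proteins are zinc finger factors that bind GC-rich sites. Many of these genes are immediate early genes: they are switched on within minutes by signals such as T cell receptor engagement, through MAP kinases, SRF with its ternary complex partners, and CREB, without new protein synthesis, and their transcripts are short-lived. In T cells AP-1 joins NFAT at cytokine genes, whereas EGR2 and EGR3 are known for restraining activation. Taking tissue apart to release cells is also known to switch on FOS, JUN and EGR genes, and no library in this series separates that from signals received in the liver.

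Each library held 19731501 to 24398738 counted reads. Levels are given as CPM, the usual read count scaled to a common library size, here with TMM factors. Nt5e had 5.88, 14.5 and 6.43 CPM in CD73-MCD, against 177 and 87.6 CPM in MCD, with 243 and 241 CPM in NCD. Its log2 fold change in CD73-MCD against MCD was -3.88 (SE 0.51, edgeR adjusted p = 1). DESeq2 gave -3.87 for the same comparison, with an adjusted p of 4.829e-09. T cell and Treg markers were present in every library, with Cd3e at 93.5 to 303 CPM, Cd4 at 610 to 2137 CPM, Foxp3 at 108 to 287 CPM and Il2ra at 193 to 791 CPM. All 12 genes of the T cell list were lower in MCD than in NCD (median log2 fold change -0.56). Of these, 5 had groups that did not overlap, against 14.8% of tested genes. All 12 were also lower in CD73-MCD than in NCD (median -0.73), 8 without overlap, against 12.8% of tested genes. Of 12 Treg genes, 9 were lower and 3 higher in MCD than in NCD, and 8 lower and 4 higher in CD73-MCD than in NCD. RNA of other cells was present too: Lyz2, a macrophage gene, had 845 to 26675 CPM over the libraries. In bulk RNA, fewer cells of a type and less RNA per cell cannot be told apart.

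The stretches just upstream of a transcript start are shown for 5 of the genes, for the motif matches that they hold. Each is the 250 bases before a RefSeq transcript start on GRCm38.p6, written 5′ to 3′ on the gene's strand, and capitals mark the motif matches described after the sequences. They lie at chr12:85473640-85473889 (plus strand) for Fos, chr7:19310046-19310295 (minus strand) for Fosb, chr4:95052223-95052472 (minus strand) for Jun, chr8:84978749-84978998 (minus strand) for Junb and chr10:67537619-67537868 (plus strand) for Egr2.
Fos: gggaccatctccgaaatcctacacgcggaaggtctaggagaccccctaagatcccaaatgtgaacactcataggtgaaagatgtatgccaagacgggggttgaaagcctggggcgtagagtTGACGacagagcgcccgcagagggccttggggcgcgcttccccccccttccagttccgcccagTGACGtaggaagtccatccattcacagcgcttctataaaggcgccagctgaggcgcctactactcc
Fosb: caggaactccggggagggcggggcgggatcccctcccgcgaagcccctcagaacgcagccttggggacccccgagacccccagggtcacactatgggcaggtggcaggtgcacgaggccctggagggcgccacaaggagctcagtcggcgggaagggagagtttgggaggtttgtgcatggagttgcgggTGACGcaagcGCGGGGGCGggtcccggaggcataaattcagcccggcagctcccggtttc
Jun: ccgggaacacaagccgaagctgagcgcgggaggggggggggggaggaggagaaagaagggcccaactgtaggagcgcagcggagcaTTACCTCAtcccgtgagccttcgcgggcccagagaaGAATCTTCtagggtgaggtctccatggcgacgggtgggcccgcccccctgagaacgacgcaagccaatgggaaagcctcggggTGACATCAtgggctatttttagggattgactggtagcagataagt
Junb: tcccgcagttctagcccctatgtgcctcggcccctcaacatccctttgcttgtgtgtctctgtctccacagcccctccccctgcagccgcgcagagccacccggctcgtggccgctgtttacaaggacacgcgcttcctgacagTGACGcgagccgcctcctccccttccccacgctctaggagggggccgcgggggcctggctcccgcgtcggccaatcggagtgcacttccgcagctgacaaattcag
Egr2: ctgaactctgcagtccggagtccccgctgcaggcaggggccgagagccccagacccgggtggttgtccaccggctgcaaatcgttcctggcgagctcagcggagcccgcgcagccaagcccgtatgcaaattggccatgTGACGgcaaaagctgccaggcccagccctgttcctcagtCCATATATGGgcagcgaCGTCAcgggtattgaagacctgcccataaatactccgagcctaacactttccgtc
Positions are counted back from the start, where -1 is the last base before it. Jun has TTACCTCA from -164 to -157 and TGACATCA from -45 to -38, 2 relatives of the AP-1 site that JUN dimers are known to bind in the Jun promoter. Between them Jun has GAATCTTC from -128 to -121, an inverted pair of the units that make up a heat shock element. Fos and Fosb hold the CRE half-site TGACG, from -66 to -62 and from -129 to -125 in Fos and from -60 to -56 in Fosb. Fosb also has the EGR site GCGGGGGCG from -50 to -42. Junb has a single half-site, from -106 to -102. Egr2 has a CArG box, the site bound by SRF, as CCATATATGG from -72 to -63, with a CRE half-site on either side of it. This Egr2 window lies inside the gene as annotated and is not the only Egr2 window.

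The search covered both strands of 32851 such windows from 27025 genes. TTACNTCA was found in 2.858% of them, TGACATCA in 2.928%, the heat shock pair GAANNTTC in 6.694%, TGACG in 17.765%, the EGR site GCGNGGGCG in 4.697% and the CArG box in 1.467%. TGACG lies inside the full CRE, and the letters TGACG and TGACATCA were added to the search after the sequences had been read. The full CRE TGACGTCA (1.546% of windows) and the AP-1 site TGAGTCA (4.463%) had no match in any window of these genes. The ETS core CCGGAA (12.03% of windows) matched only in another Egr2 window. Fosl2, in a window that is not printed, had an EGR site from -79 to -71 and a heat shock pair from -244 to -237. A match here is a run of letters and not a shown binding site. Windows were found for 7 of the 9 genes. Egr1 is not printed, and Egr3 is named only.

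Fos, Junb and Jun were among the most abundant transcripts in every library. Fos lay between the 99.6th and 99.9th percentile of the 14784 tested genes, Junb between 99.2 and 100, and Jun between 99.1 and 99.8. Egr1 ran from 86.4 to 99.3 and Fosb from 54.4 to 98.0. Fosl2 (39.0 to 80.1), Egr2 (34.9 to 79.5) and Egr3 (30.5 to 58.1) sat lower. Jund as counted was near the bottom at 11.8 to 20.04, but its level is uncertain, as described below. Levels were compared between genes as CPM per kilobase of exon. On that scale Fos had 833 to 2412, Junb 505 to 2436 and Jun 337 to 947. Egr1 had 23.8 to 226 CPM per kilobase and Fosb 2.35 to 75.5. The neighbours Fos and Junb overlapped in range, as did Junb and Jun.

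**Figure D1:**
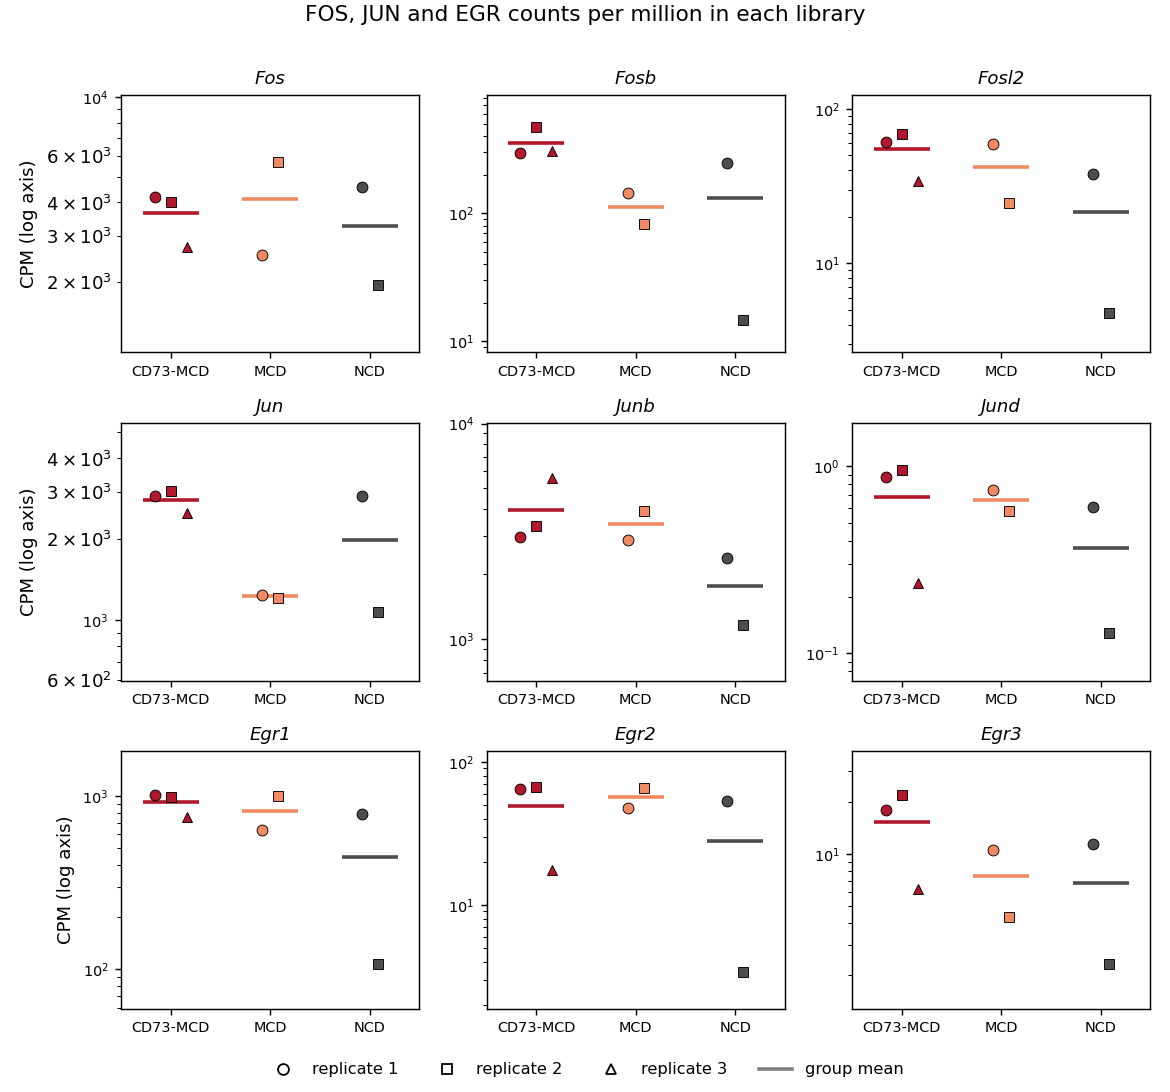
CPM of each of the 9 genes in the 7 libraries on log10 axes, 1 panel per gene, with a point per library and a bar at the group mean, for CD73-MCD, MCD and NCD. NCD replicate 2 is the lowest point in all 9 panels, and Jun and Fosb show all 3 CD73-MCD libraries above both MCD libraries.

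Fos (ENSMUSG00000021250, chromosome 12, 85473890 to 85477273, plus strand, GRCm38) encodes the partner of JUN in the classical AP-1 dimer. It had 4185, 4014 and 2708 CPM in CD73-MCD, 2546 and 5673 CPM in MCD, and 4566 and 1959 CPM in NCD. The highest library was MCD replicate 2 and the lowest NCD replicate 2, and the 3 groups overlapped. Each wild type pair differed by more than 2-fold, 2.23-fold in MCD and 2.33-fold in NCD. The log2 fold change of Fos was -0.18 in CD73-MCD against MCD (SE 0.47, 95% interval -1.28 to 0.93, edgeR adjusted p = 1).

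Fosb (ENSMUSG00000003545, chromosome 7, 19302696 to 19310051, minus strand) encodes a FOS protein whose short splice form, lacking part of the activation domain, is known from brain. Its counts do not separate the splice forms. Fosb had 296, 472 and 305 CPM in CD73-MCD, 144 and 81.7 CPM in MCD, and 248 and 14.7 CPM in NCD. All 3 CD73-MCD libraries lay above the 4 wild type libraries, while the NCD pair spanned the MCD pair. The ratio of the highest to the lowest of the 7 libraries was 32.1, the widest of the 9 genes.

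Fosl2 (ENSMUSG00000029135, chromosome 5, 32135801 to 32157842, plus strand) encodes FRA2, a FOS protein without the activation domain of FOS. It had 60.7, 68.6 and 34.2 CPM in CD73-MCD, 59.0 and 24.6 CPM in MCD, and 38.0 and 4.77 CPM in NCD. The groups overlapped, with NCD replicate 2 far below the rest.

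Jun (ENSMUSG00000052684, chromosome 4, 95049034 to 95052222, minus strand) encodes c-JUN, which can act as a dimer with itself and is known to bind its own promoter. Jun had 2894, 3019 and 2513 CPM in CD73-MCD, 1246 and 1208 CPM in MCD, and 2899 and 1075 CPM in NCD. The CD73-MCD libraries were all above both MCD libraries, and the NCD pair stood apart, with a library at the CD73-MCD level and another below MCD. The noncoding gene Junos overlaps Jun on the other strand, and it had 0 to 55 counts per library against 23001 to 66651 counts of Jun.

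Junb (ENSMUSG00000052837, chromosome 8, 84974484 to 84978718, minus strand) encodes a JUN protein known in T cells for its work with BATF in effector Treg and T helper cells. Junb had 2991, 3346 and 5605 CPM in CD73-MCD, 2888 and 3949 CPM in MCD, and 2384 and 1161 CPM in NCD. Both NCD libraries lay below all 5 libraries from the deficient diet, and the CD73-MCD and MCD libraries overlapped. The highest was CD73-MCD replicate 3, which was not the highest for any other of the 9 genes. Prdx2 overlaps the end of Junb on the other strand, with 2189 to 7307 counts against 27032 to 117667 counts of Junb, and the labels do not tell if counting used strand.

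Jund (ENSMUSG00000071076, chromosome 8, 70698949 to 70700616, plus strand) encodes a JUN protein that is known as a steadily expressed family member and not as an immediate early one. Only 18, 21 and 5 reads were counted in the CD73-MCD libraries, 16 and 11 in MCD, and 12 and 3 in NCD. The annotated gene Gm11175 lies inside Jund on the other strand, from 70699162 to 70700080, and had 0 counts in all 7 libraries. The labels do not say how the authors' counting treated this overlap, so the level of Jund is uncertain. With so few reads the direction of Jund is uncertain as well. Counts and medians over the 9 genes include it, and the median of the 8 others is given beside the main one in each comparison.

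Egr1 (ENSMUSG00000038418, chromosome 18, 34859823 to 34864984, plus strand) encodes the most widely induced EGR factor. Egr1 had 1014, 991 and 758 CPM in CD73-MCD, 640 and 996 CPM in MCD, and 786 and 107 CPM in NCD. NCD replicate 2 lay far below the other 6 libraries, which spanned 640 to 1014 CPM. Egr2 (ENSMUSG00000037868, chromosome 10, 67535475 to 67542188, plus strand) had 64.1, 66.3 and 17.4 CPM in CD73-MCD, 47.7 and 65.9 CPM in MCD, and 52.9 and 3.39 CPM in NCD. CD73-MCD replicate 3 was low for Egr2, as was NCD replicate 2, and the groups overlapped. Egr3 (ENSMUSG00000033730, chromosome 14, 70077203 to 70082614, plus strand) had 17.9, 21.7 and 6.24 CPM in CD73-MCD, 10.5 and 4.36 CPM in MCD, and 11.3 and 2.32 CPM in NCD. Its groups overlapped as well. Per kilobase, Egr1 made up 89.7 to 96.3% of the EGR transcripts in each library, Egr2 2.92 to 8.82% and Egr3 0.41 to 2.08%.

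The make-up of the FOS and JUN transcripts was compared within libraries, as shares of their summed CPM per kilobase. Fos, Junb and Jun together made up nearly all of this sum as counted. The level of Jund is uncertain, and a higher one would lower the shares of the others. Jun held 17.8 to 22.6% in CD73-MCD, 8.37 to 14.2% in MCD and 20.1 to 23.1% in NCD. The MCD libraries had the lowest Jun shares, below all 5 others. Junb held 32.2 to 55.0% in CD73-MCD, 37.9 to 45.5% in MCD and 26.4 to 30.1% in NCD, with both NCD libraries lowest. Fos held 26.0 to 44.0% in CD73-MCD, 39.2 to 53.3% in MCD and 49.4 to 49.7% in NCD. These shares were not tested and add up to a fixed total, so a higher share of one gene lowers that of another.

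**Figure D2:**
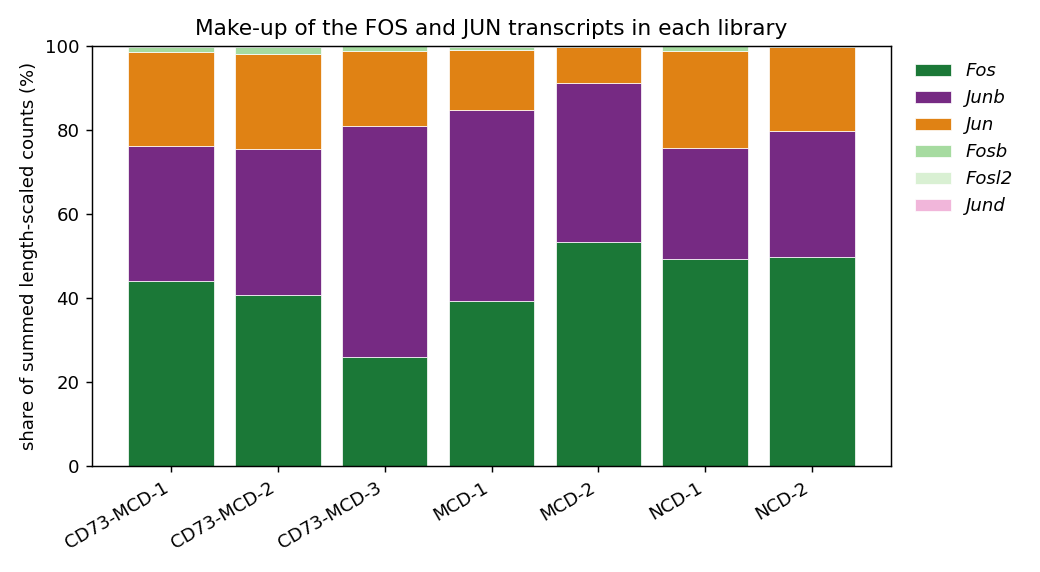
Share in percent of each FOS and JUN gene in the summed CPM per kilobase of the 6 genes, stacked for each library, with CD73-MCD on the left, then MCD, then NCD. The Jun segment is thinnest in the 2 MCD libraries (8.37 and 14.2%), and the Junb segment is thickest in CD73-MCD replicate 3 (55.0%). Jund is shown as counted, and its level is uncertain.

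The 2 NCD libraries differed from each other for every one of the 9 genes, and NCD replicate 2 was the lowest of the 7 libraries for all 9, with Jund at 3 reads there. Among all tested genes, 13% were lowest in that library. NCD replicate 1 exceeded NCD replicate 2 by 16.9-fold for Fosb, 15.6-fold for Egr2, 7.97-fold for Fosl2, 7.37-fold for Egr1 and 4.89-fold for Egr3. The ratio was 2.70 for Jun, 2.33 for Fos and 2.05 for Junb. A ratio larger than that of Fosb was found for 1.26% of tested genes, and one larger than that of Junb for 18.1%. The same library also had the lowest macrophage marker sum and the highest T cell marker sum: 14 macrophage and Kupffer cell genes summed to 1208 CPM there, against 2435 to 32945 CPM in the other libraries, and 12 T cell genes to 11070 CPM, against 4155 to 8445 CPM. The part of these cells in the low AP-1 and EGR values was not tested.

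In MCD against NCD, which asks what the deficient diet does in wild type cells, no member passed an edgeR adjusted p of 0.05, and neither did any other tested gene (0% called). The member closest to the threshold was Junb, which averaged 3418 ± 751 CPM in MCD and 1772 ± 865 CPM in NCD (SD, n = 2 each). Its log2 fold change was 0.95 (SE 0.45, 95% interval -0.12 to 2.01, edgeR adjusted p = 0.808), with both MCD libraries above both NCD libraries. That made 1 of 9 genes whose groups did not overlap with MCD higher, where 16.8% of all tested genes did so. None was lower without overlap, against 14.8% of tested genes. No member had an unadjusted p under 0.05, against 3.96% of tested genes on the higher side and 2.04% on the lower. DESeq2 called 304 genes in this comparison and none of the 9.

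Jun averaged 1227 ± 27.5 CPM in MCD and 1987 ± 1289 CPM in NCD (SD, n = 2 each), a log2 fold change of -0.70 (SE 0.44, 95% interval -1.72 to 0.33, edgeR adjusted p = 0.828). Egr1 averaged 818 ± 252 CPM in MCD and 447 ± 481 CPM in NCD (SD, n = 2 each), a log2 fold change of 0.87 (SE 0.77, 95% interval -0.92 to 2.67, edgeR adjusted p = 0.919). Of the 9 genes, 7 had a positive log2 fold change, with a median of 0.84, beside a median of 0.04 over all tested genes. Jund itself stood at that median, and the 8 others gave 6 positive, with a median of 0.60. This balance rests on NCD replicate 2. Without that library 5 of the 9 were positive and 4 negative, with a median of 0.06 (-0.04 for the 8 without Jund), whereas without NCD replicate 1 all 9 were positive, with a median of 2.31. Junb stayed positive under both, at 0.53 without NCD replicate 2 and 1.56 without NCD replicate 1, and Jun was at -1.23 and 0.19. With a single library left in a group, its spread is taken from the other groups.

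CD73-MCD against MCD sets knockout beside wild type on the same diet. Jun averaged 2809 ± 263 CPM in CD73-MCD (SD, n = 3) and 1227 ± 27.5 CPM in MCD (SD, n = 2). The log2 fold change of Jun was 1.19 (SE 0.42, 95% interval 0.22 to 2.17, unadjusted p = 0.022, edgeR adjusted p = 1), higher in 3 of 3 libraries, and 1.08% of tested genes had a smaller p. It ran from 1.14 to 1.27 with each library left out in turn. No member had an edgeR unadjusted p under 0.05 without CD73-MCD replicate 1 or without CD73-MCD replicate 2, and 1 member had without CD73-MCD replicate 3. Fosb averaged 358 ± 98.9 CPM in CD73-MCD (SD, n = 3) and 113 ± 44.0 CPM in MCD (SD, n = 2). Its log2 fold change was 1.66 (SE 0.98, 95% interval -0.62 to 3.95, edgeR adjusted p = 1), and it ran from 1.31 to 2.17 with each library left out.

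Neither Jun nor Fosb passed the threshold, and no gene at all did (0% called), although DESeq2 called 42 genes, none of the 9 among them. Jun and Fosb were the 2 of 9 genes whose groups did not overlap with CD73-MCD higher, where 8.37% of tested genes did so. None was lower without overlap, against 9.66% of tested genes. Jun was the 1 member with an unadjusted p under 0.05, against 1.2% of tested genes on the higher side, and none was on the lower side, against 2.04%. The other 7 genes overlapped between the groups. Their log2 fold changes were -0.18 for Fos, 0.38 for Fosl2, 0.22 for Junb, 0.06 for Jund, 0.17 for Egr1, -0.21 for Egr2 and 1.04 for Egr3. The median of the 9 was 0.22, and 0.30 without Jund, beside -0.03 over all tested genes. Several signs turned when an MCD library was left out: Fos was at -0.60 without MCD replicate 1 and 0.51 without MCD replicate 2.

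**Figure D3:**
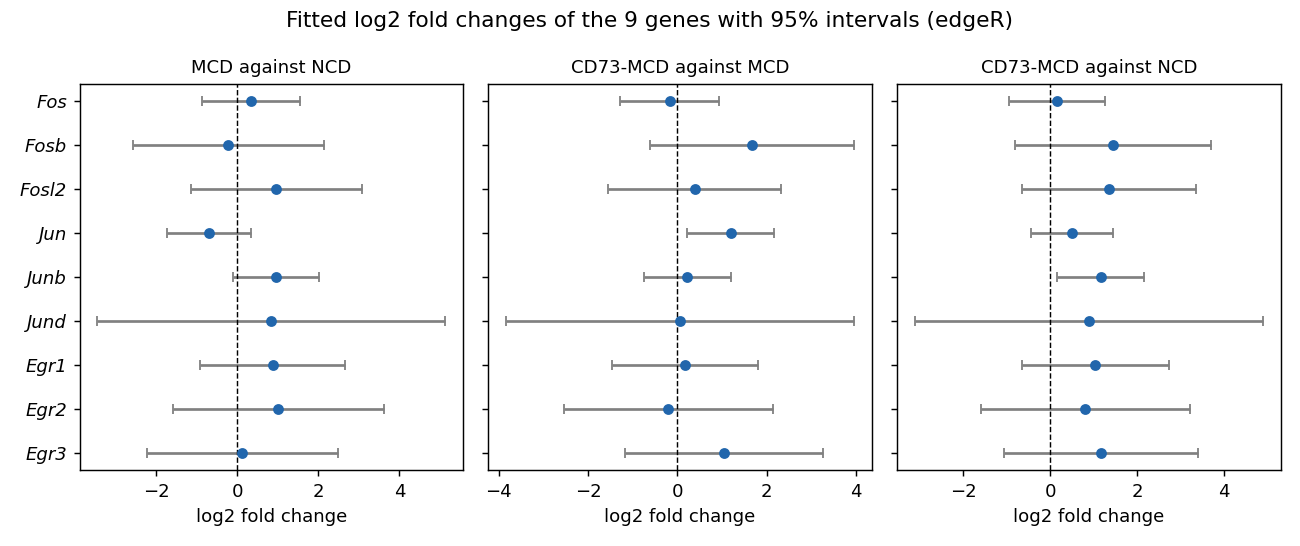
Fitted log2 fold changes of the 9 genes with 95% intervals from edgeR, in 3 panels for MCD against NCD, CD73-MCD against MCD and CD73-MCD against NCD, with a dashed line at 0. The interval of Jun in CD73-MCD against MCD (0.22 to 2.17) and that of Junb in CD73-MCD against NCD (0.17 to 2.17) lie above 0 before adjustment, and the other 25 cross it.

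CD73-MCD against NCD differs in both genotype and diet, and shares its libraries with the other comparisons. All 9 genes had a positive log2 fold change, with a median of 1.04, and of 1.10 without Jund, beside 0.06 over all tested genes. Junb averaged 3981 ± 1418 CPM in CD73-MCD (SD, n = 3) and 1772 ± 865 CPM in NCD (SD, n = 2), a log2 fold change of 1.17 (SE 0.43, 95% interval 0.17 to 2.17, unadjusted p = 0.028, edgeR adjusted p = 0.517). Fosb was at 1.45 (SE 0.97), Egr1 at 1.04 (SE 0.72) and Jun at 0.50 (SE 0.40). Again no member and no other gene was called (0%), while DESeq2 called 552 genes and none of the 9. Fosb and Junb did not overlap, with CD73-MCD higher, as was the case for 13.4% of tested genes. None was lower without overlap, against 12.8%. Junb was the only member with an unadjusted p under 0.05, against 4.72% of tested genes higher and 4.25% lower. Without NCD replicate 2 the count was 6 positive and 3 negative, with a median of 0.23, and Junb was at 0.74 and Fosb at 0.53. Leaving out NCD replicate 1 gave 9 positive, with a median of 2.72.

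Summed heat shock transcripts, like Jun, were higher in every CD73-MCD library than in both MCD libraries, though no gene of the list passed the test. The 14 heat shock genes summed to 15400, 16359 and 10305 CPM in CD73-MCD, 8255 and 4803 CPM in MCD, and 12761 and 8299 CPM in NCD. In CD73-MCD against MCD all 14 were higher, where 47.9% of tested genes were, and 8 of them did not overlap, where 8.37% of tested genes did so. Their median log2 fold change was 1.22, beside -0.03 over all tested genes, and none was called. In MCD against NCD 13 of the 14 were lower and 1 higher (median -0.57), where 52.3% of tested genes were higher. Of the 13, 7 did not overlap, against 14.8% of tested genes. CD73-MCD against NCD gave 10 higher and 4 lower (median 0.21), with 5 higher without overlap, against 13.4% of tested genes. Hspa1a, the inducible HSP70 chaperone, had 3209, 3107 and 2012 CPM in CD73-MCD, 482 and 157 CPM in MCD, and 1902 and 578 CPM in NCD. Dnajb1, its HSP40 partner, had 2282, 3010 and 1145 CPM in CD73-MCD, 528 and 214 CPM in MCD, and 913 and 281 CPM in NCD. The part of cell stress or handling in the Jun and Fosb values was not tested.

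Summed macrophage and Kupffer cell transcripts were highest in one MCD library and far lower in the other. The sum was 12720, 9503 and 7441 CPM in CD73-MCD, 2435 and 32945 CPM in MCD, and 10966 and 1208 CPM in NCD. No marker of this list was at 0 in a whole group. Lyz2 made up most of the sum in every library, with 26675 CPM in MCD replicate 2. In CD73-MCD against MCD all 14 genes of the list were lower (median log2 fold change -1.65), where 47.9% of tested genes were higher. Only 1 of the 14 did not overlap, against 9.66% of tested genes. All 10 monocyte and neutrophil genes were lower too (median -1.91), 1 of them without overlap. MCD replicate 2, which had the highest sum, also had the highest Fos (5673 CPM), and MCD replicate 1, with the lower sum, had 2546 CPM of Fos. Jun differed little between those 2 libraries, at 1246 and 1208 CPM. Fos and the macrophage sum had the same order over the 7 libraries, except that NCD replicate 1 and CD73-MCD replicate 1 changed places. Clec4f, a Kupffer cell marker, was at 43.2, 28.5 and 48.3 CPM in CD73-MCD, 48.2 and 111 CPM in MCD, and 249 and 71.9 CPM in NCD. The B cell list summed to 379 to 1243 CPM in CD73-MCD, 338 to 489 CPM in MCD and 127 to 308 CPM in NCD, and Cr2 was at 0 in NCD. In CD73-MCD against MCD 9 of the 10 B cell genes were higher, where 47.9% of tested genes were. Of the 9, 6 did not overlap, against 8.37% of tested genes, and 6 had an edgeR unadjusted p under 0.05, against 1.2%. The median log2 fold change of the 10 was 2.41, and none was called by edgeR. Cd79a, a part of the B cell receptor, had 251, 210 and 79.7 CPM in CD73-MCD, against 37.2 and 72.6 CPM in MCD. Jchain, a plasma cell gene, was lower, with 0, 0 and 44.7 CPM in CD73-MCD, against 158 and 183 CPM in MCD. Hepatocyte genes summed to 58.3 to 113 CPM in CD73-MCD, 17.7 to 351 CPM in MCD and 21.6 to 90.0 CPM in NCD. Hp, which other cells can also make, gave most of the sum in CD73-MCD and MCD, with 112, 70.5 and 52.1 CPM in CD73-MCD and 292 CPM in MCD replicate 2. Apoa1, Ttr, Serpina1a, Fgb and Fga were at 0 in CD73-MCD and Cyp2e1 in NCD. Of 9 tested hepatocyte genes 8 were lower in CD73-MCD than in MCD, where 47.9% of tested genes were higher. Of the 8, 2 did not overlap, against 9.66% of tested genes. Among natural killer and CD8 T cell genes, Ncr1 had 4.42 to 6.72 CPM in CD73-MCD and 16.5 and 37.7 CPM in MCD. Ncr1, Klre1 and Eomes were at 0 in NCD, and Eomes was at 0 in MCD replicate 1 as well. Other genes of that list were counted in NCD, such as Nkg7 at 48.7 and 64.6 CPM and Gzmb at 619 and 236 CPM. In MCD Nkg7 had 115 and 153 CPM and Gzmb 530 and 236 CPM. Of the 12 genes, 11 were higher and 1 lower in MCD than in NCD (median log2 fold change 2.94). Groups did not overlap for 7 of the 11, against 16.8% of tested genes. CD73-MCD against NCD also gave 11 higher and 1 lower (median 1.62), with 10 higher without overlap, against 13.4% of tested genes. The part of these cells in the AP-1 and EGR values was not tested.

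**Figure D4:**
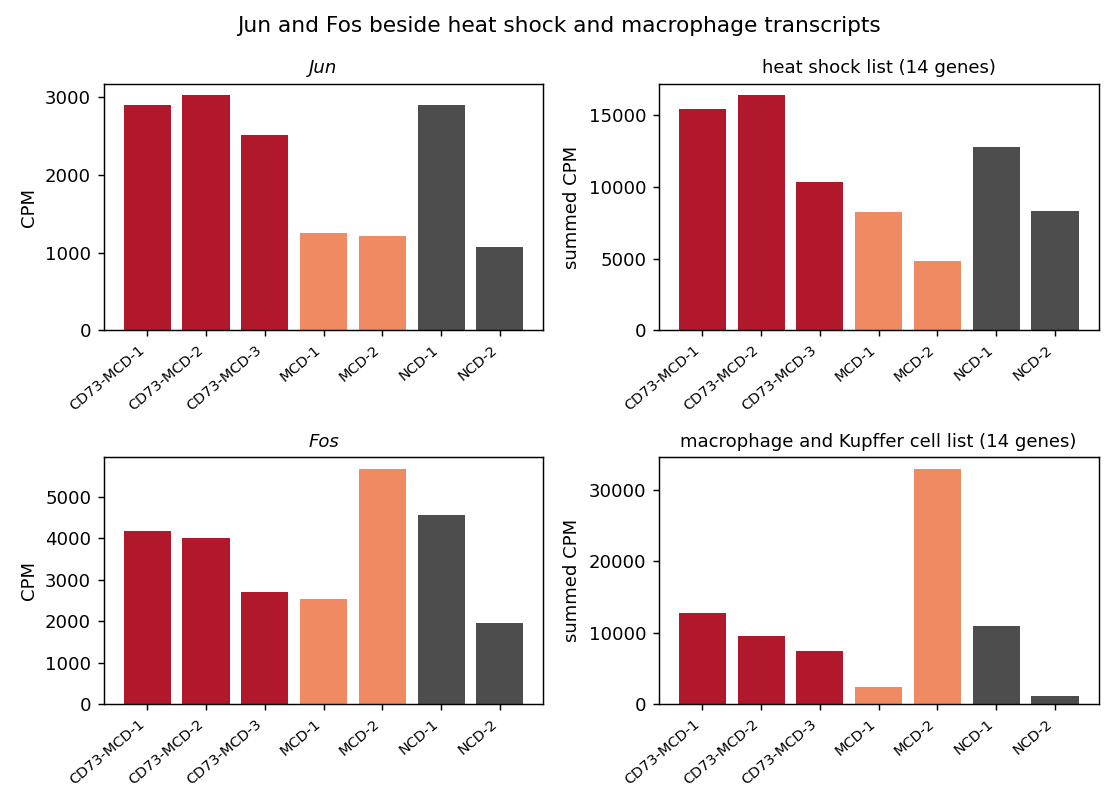
CPM of Jun and Fos (left) beside the summed CPM of 14 heat shock genes and of 14 macrophage and Kupffer cell genes (right), with a bar per library from 0, for CD73-MCD, MCD and NCD from left to right. Jun and the heat shock sum are both higher in the 3 CD73-MCD libraries than in the 2 MCD libraries, and Fos and the macrophage sum are both highest in MCD replicate 2.

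Other immediate early genes were read from a list of 32, of which 31 were tested. In CD73-MCD against MCD 27 were higher and 4 lower, with a median log2 fold change of 0.57 and none called. Without overlap 8 were higher and 1 lower, where 8.37% and 9.66% of tested genes were. Myc, a driver of growth and metabolism in activated T cells, had 419, 387 and 273 CPM in CD73-MCD, 195 and 148 CPM in MCD, and 200 and 144 CPM in NCD. All 3 CD73-MCD libraries lay above the 4 wild type ones. The log2 fold change of Myc in CD73-MCD against MCD was 1.07 (SE 0.32, unadjusted p = 0.011, edgeR adjusted p = 1). Klf2, a factor of resting and recirculating T cells, had 146, 114 and 123 CPM in CD73-MCD, 81.2 and 69.5 CPM in MCD, and 158 and 125 CPM in NCD, so that both MCD libraries were lowest. In MCD against NCD 18 of the 31 were higher and 13 lower, with a median of 0.19. Zfp36l1, which promotes decay of AU-rich mRNAs, had a log2 fold change of 1.04 there (SE 0.49, edgeR unadjusted p = 0.067). It had 283 and 136 CPM in MCD and 137 and 66.2 CPM in NCD, overlapping. Of the 31, 1 had an edgeR unadjusted p under 0.05 on the lower side, against 2.04% of tested genes, and none on the higher side, against 3.96%.

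The other basic leucine zipper genes that can enter AP-1-like dimers (14 listed, 13 tested) gave 8 higher and 5 lower in CD73-MCD against MCD, with a median of 0.68. Atf2, a CRE-binding partner of JUN, had 164, 161 and 161 CPM in CD73-MCD, 99.5 and 103 CPM in MCD, and 139 and 133 CPM in NCD. The replicates of each group lay close together, and no groups overlapped. Its log2 fold change in CD73-MCD against MCD was 0.68 (SE 0.24, unadjusted p = 0.024, edgeR adjusted p = 1). Atf4, the integrated stress response factor, had 447, 443 and 150 CPM in CD73-MCD, 178 and 127 CPM in MCD, and 469 and 170 CPM in NCD, and its groups overlapped. In MCD against NCD 7 of the 13 were higher and 6 lower, with a median of 0.41. Batf3, known from dendritic cells as well as T cells, had 2.82, 1.31 and 1.71 CPM in CD73-MCD, 3.35 and 10.4 CPM in MCD, and 0.76 and 0.17 CPM in NCD. Bach2, a repressor that competes at AP-1 sites, had 2.51 and 3.99 CPM in MCD and 17.0 and 14.6 CPM in NCD. The dendritic cell list summed to 1052, 667 and 1564 CPM in CD73-MCD, 626 and 1265 CPM in MCD, and 340 and 242 CPM in NCD. Like Batf3 it was higher in MCD than in NCD, but it overlapped between CD73-MCD and MCD, where Batf3 was lower in all 3 CD73-MCD libraries. Of the 10 dendritic cell genes, 9 were higher and 1 lower in MCD than in NCD, with a median log2 fold change of 2.81. Groups did not overlap for 8 of the 9, against 16.8% of tested genes, and for the 1 lower gene, against 14.8%.

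Upstream of the members, the 25 genes of SRF, its ternary complex partners and the MAP kinases gave 18 higher and 7 lower in MCD against NCD (median 0.20) and 4 higher and 21 lower in CD73-MCD against MCD (median -0.28), with none called in either. The 2 comparisons share the MCD libraries. Map2k2, the MAP kinase kinase MEK2, had 141 and 169 CPM in MCD and 78.8 and 109 CPM in NCD. Nras, an upstream GTPase, had 173, 195 and 211 CPM in CD73-MCD, against 243 and 319 CPM in MCD. Rps6ka1, the kinase RSK1 downstream of ERK, had 151, 133 and 196 CPM in CD73-MCD, against 210 and 265 CPM in MCD. The log2 fold change was -0.54 (SE 0.28) for Nras and -0.57 (SE 0.33) for Rps6ka1. Map2k1, which encodes MEK1, had 136 and 133 CPM in MCD, against 100.2 and 84.8 CPM in NCD.

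Of 12 MAP kinase feedback genes, phosphatases and Sprouty inhibitors among them, 9 were higher and 3 lower both in MCD against NCD (median 0.63) and in CD73-MCD against MCD (median 0.36). Dusp10, a phosphatase of JNK and p38, had 285 and 98.8 CPM in MCD and 733 and 220 CPM in NCD, overlapping. Dusp8 had 31.1 and 6.67 CPM in MCD and 0.51 and 0.90 CPM in NCD. Dusp16, another JNK phosphatase, had 23.6, 48.7 and 20.7 CPM in CD73-MCD, against 13.9 and 12.4 CPM in MCD. Spry1 had 20.3, 45.0 and 28.4 CPM in CD73-MCD, against 22.1 and 5.72 CPM in MCD, overlapping.

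Among 16 EGR corepressors and T cell genes linked to EGR2 and EGR3, 10 were higher and 6 lower in MCD against NCD (median 0.37), and 9 were higher and 7 lower in CD73-MCD against MCD (median 0.01). Fasl, the death ligand that EGR factors are known to activate, had 69.0, 110 and 120 CPM in CD73-MCD, 61.8 and 61.2 CPM in MCD, and 15.7 and 11.0 CPM in NCD. Every library from the deficient diet exceeded both NCD libraries. The log2 fold change of Fasl in MCD against NCD was 2.20 (SE 0.40, unadjusted p = 0.000788, edgeR adjusted p = 0.548). Natural killer cells also make Fasl, and their 12-gene list together with CD8 T cell genes summed to 767 to 852 CPM in CD73-MCD, 916 and 1015 CPM in MCD and 761 and 368 CPM in NCD. Gzmb alone had 619 and 236 CPM of the NCD sums, and 530 and 236 CPM of the MCD sums. In MCD against NCD 11 of the 12 genes were higher and 1 lower, with a median log2 fold change of 2.94. Of the 11, 7 did not overlap, against 16.8% of tested genes. The part of natural killer and CD8 T cells in Fasl was not tested. Dgka, a brake on T cell receptor signalling, had 162 and 123 CPM in MCD and 276 and 364 CPM in NCD. Ndrg1, an anergy-linked gene, had 11.8, 14.1 and 18.1 CPM in CD73-MCD, against 27.2 and 29.0 CPM in MCD. Rnf128, the anergy-linked ubiquitin ligase GRAIL, had 55.1, 26.4 and 62.8 CPM in CD73-MCD, against 37.3 and 217 CPM in MCD.

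Cytokine genes known as targets of AP-1 with NFAT were 13, of which 11 were tested. In CD73-MCD against MCD 9 were higher, where 47.9% of tested genes were, and 2 lower. Their median was 0.80, beside -0.03 over all tested genes. Only 1 was higher without overlap, where 8.37% of tested genes were, and none was lower without overlap. Ifng had 48.6, 56.1 and 41.5 CPM in CD73-MCD, 27.5 and 9.56 CPM in MCD, and 27.7 and 5.58 CPM in NCD. All 3 CD73-MCD libraries lay above the others, with a log2 fold change of 1.40 against MCD (SE 0.75, unadjusted p = 0.103, edgeR adjusted p = 1). Il17a had 3.89, 0 and 1.52 CPM in CD73-MCD, against 22.5 and 3.89 CPM in MCD. Csf2 and Il13 had no counts in NCD, where 0 counts leave room for levels up to 0.152 CPM in replicate 1 and 0.129 CPM in replicate 2 (3 counts each). They reached at most 2.67 and 1.36 CPM in the other libraries.

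The 9 genes varied together across the libraries mainly through NCD replicate 2. Over 7 libraries all 36 pairs had a positive Pearson r of log2 CPM, from 0.36 (Junb with Jund) to 0.94 (Jund with Egr2), with a median of 0.74. Jund, whose level and direction are uncertain, is in both of these pairs. Among pairs without Jund r ran from 0.37 (Junb with Egr3) to 0.93 (Egr1 with Egr2). Without NCD replicate 2, 23 of the 36 were positive and the median was 0.18. A profile was made as the mean of the 9 standardised log2 CPM values. It stood at 0.62, 0.75 and 0.01 in CD73-MCD, 0.00 and 0.07 in MCD, and 0.34 and -1.81 in NCD.

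Among the 9112 other genes that averaged 5 CPM or more, those most like the profile were Herpud1, Ess2, Eif2ak3, Maff, Nfkbia, Lilr4b, Lilrb4a, Ube2e3, Mdm2 and Nr4a1. Their r over the 7 libraries was 0.976 to 0.991 and Spearman's rho 0.82 to 1. Without NCD replicate 2 the r of these 10 was 0.864 to 0.973, and without CD73-MCD replicate 2 as well it was 0.733 to 0.975. These are descriptions, given with no p, since the genes were picked for their likeness. In all, 134 genes had r above 0.9. Nr4a1, an immediate early nuclear receptor of T cell receptor signalling, had 1298, 1709 and 820 CPM in CD73-MCD, 776 and 869 CPM in MCD, and 955 and 302 CPM in NCD, and its order over the 7 libraries was that of the profile. Nfkbia, the inhibitor of NF-kappa B, had 2472, 2920 and 2026 CPM in CD73-MCD, 1865 and 1663 CPM in MCD, and 1868 and 284 CPM in NCD. Eif2ak3, the endoplasmic reticulum stress kinase PERK, had 19.4, 19.2 and 12.7 CPM in CD73-MCD, 11.0 and 11.8 CPM in MCD, and 15.2 and 0.99 CPM in NCD. With NCD replicate 2 left out, Eif2ak3 ranked 6 and Nr4a1 ranked 9, while the other 8 ranked between 41 and 140.

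Least like the profile were Sash3, Rac2, Spn, Wars and Erap1, with r from -0.989 to -0.970, and from -0.950 to -0.846 without NCD replicate 2. Sash3, a lymphocyte signalling adaptor, had 527, 528 and 694 CPM in CD73-MCD, 819 and 741 CPM in MCD, and 649 and 1619 CPM in NCD. Rac2, a GTPase of blood cells, had 1299, 1215 and 1493 CPM in CD73-MCD, 1638 and 1402 CPM in MCD, and 1318 and 2704 CPM in NCD. NCD replicate 2 was the highest library for all 5.

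**Figure D5:**
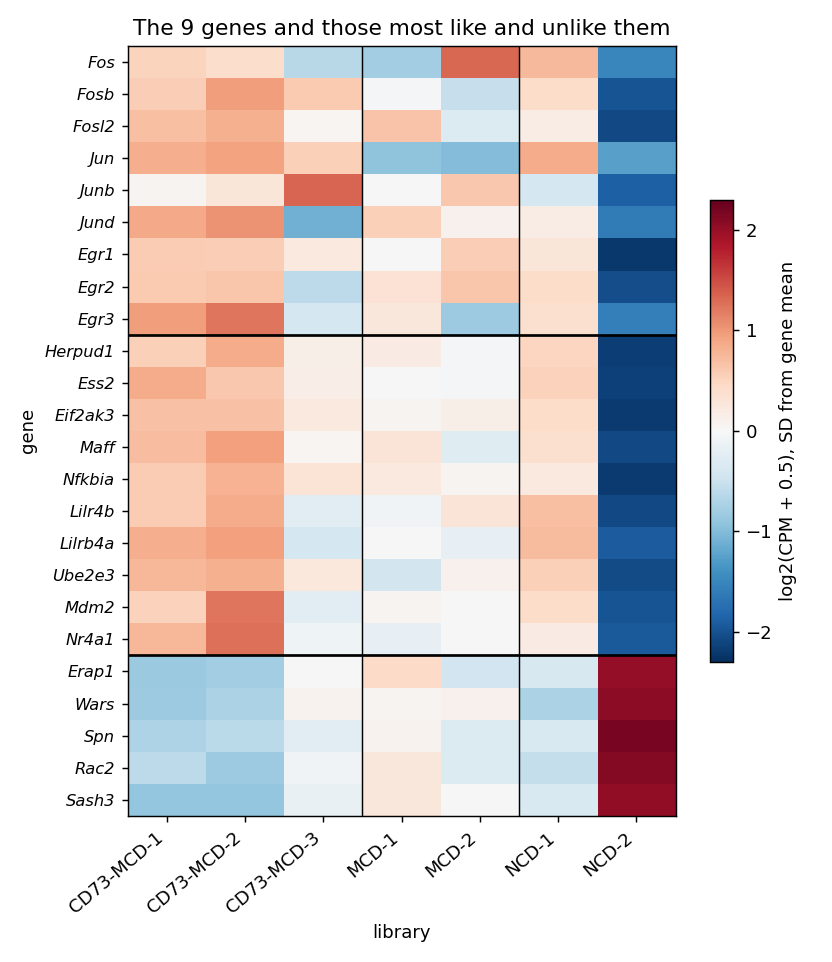
Log2 CPM, as SD from each gene's mean over the 7 libraries, for the 9 genes (top), the 10 genes most like their mean profile (middle) and the 5 least like it (bottom), with columns for CD73-MCD, MCD and NCD from left to right. NCD replicate 2 is the darkest blue column in the upper blocks (profile mean -1.81) and the darkest red in the lowest block.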

How the data were processed

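RNA was sequenced from 7 libraries of sorted CD4+CD25+ liver cells. The authors deposited raw gene counts for 53465 Ensembl IDs. The submitters' processing notes name HISAT2 2.1.0 and the build GRCm38. What tool, annotation and strand setting gave the counts is not given in the sources. Groups came from the labels. Symbols, coordinates and exon lengths came from a GENCODE annotation of GRCm38, which held 53360 of the IDs and lacked 105.

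Differences were tested by quasi-likelihood F tests in edgeR 4.0.16 (R 4.3.3, library sizes scaled by TMM, filterByExpr at 10 counts, 1 coefficient per group, all 7 libraries, 14784 genes, Benjamini-Hochberg threshold 0.05). SE is the log2 fold change divided by the root of F. Fitted fold changes use a prior count of 0.125, and log2 CPM values a prior count of 2. CPM is each deposited count over the TMM-scaled library total. The floor that 0 counts allow, 3 counts, was 0.129 to 0.158 CPM by library and covers counting error only. Dispersion was high (common value 0.833, or 91.3% as a coefficient of variation). The tests were tried on simulated data.

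The members, lists and tests were chosen with earlier results of these data known. The rule for named genes took all members, Nt5e, in each pathway list the genes past the threshold or otherwise the 2 with the smallest p in MCD against NCD and in CD73-MCD against MCD, fixed markers of heat shock and of cell types, and the genes most and least like the members' profile. Junos, Prdx2 and Gm11175 (overlap with members), Jchain and Hp (weight in a list's sum) and genes at 0 were named after their values were seen. Alternatives were other scalings, filters of none or 50 counts, DESeq2 1.42.0, limma 3.58.1 voom, the replicate block, 2 groups alone and each library left out. Promoter windows came from RefSeq (GRCm38.p6).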

Additional observations from a re-analysis of the deposited data

How the results depend on the processing

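No member passed an adjusted p of 0.05 under any of the alternatives run. Of 402 log2 fold changes of members under alternatives, 378 kept their sign and 24 did not. Counts of all genes called, 0 in each comparison in the main test, were 54 (MCD against NCD), 1 (CD73-MCD against MCD) and 140 (CD73-MCD against NCD) with no low-count filter, and 304, 42 and 552 with DESeq2; the cause was not tested. Nt5e in CD73-MCD against MCD was called at -3.88 with no low-count filter (edgeR adjusted p = 0.0003895) and at -3.87 with DESeq2 (adjusted p = 4.829e-09), and ran from -4.42 to -3.25 with each library left out. A minimum count of 50 dropped Jund. With limma voom, Fosb in MCD against NCD was at 0.94 and Jund in CD73-MCD against MCD at -0.15.

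With each library left out in turn, the members' median ran from 0.064 to 2.31 in MCD against NCD, from 0.18 to 0.51 in CD73-MCD against MCD and from 0.23 to 2.72 in CD73-MCD against NCD. The log2 fold change in MCD against NCD ran from -1.13 to 2.94 for Fosb, -1.23 to 0.19 for Jun, -0.35 to 1.07 for Fos and -0.67 to 1.68 for Egr3. In CD73-MCD against MCD it ran from -0.076 to 0.52 for Egr1, -0.60 to 0.51 for Fos, -0.12 to 1.19 for Fosl2, -0.25 to 0.46 for Jund, -0.48 to 0.20 for Egr2 and -0.11 to 0.46 for Junb. In CD73-MCD against NCD it ran from -0.32 to 0.89 for Fos, -0.041 to 1.38 for Jun and -0.10 to 3.86 for Egr2.

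Deviations of same-numbered libraries from their group means correlated at -0.10 to 0.03. In a group of 2 libraries the deviations mirror each other, so these values cannot tell if the replicate numbers pair the libraries. With the replicate number as a block, 0 genes were called in each comparison, and the members' medians were 0.98 in MCD against NCD, 0.53 in CD73-MCD against MCD and 1.57 in CD73-MCD against NCD. Under the block Fosb was at 0.27 in MCD against NCD, and in CD73-MCD against MCD Junb was at -0.12 and Egr2 at 0.14. A crossed and a same-number pairing of MCD and NCD alone, added after seeing the data, each called 0 of 13297 genes.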
